A study of Mus musculus with 6 samples.

Results

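Integrins are cell-surface receptors made of an alpha and a beta subunit. Each pair binds a set of extracellular matrix proteins or counter-receptors, and the beta subunit most widely used, integrin β1, pairs with many alpha subunits. Inside the cell the beta tail is held in its active form by talins and kindlins and is joined to actin through vinculin, the ILK-PINCH-parvin complex, paxillin and zyxin, while focal adhesion kinase and p130Cas pass the signal on. Cranial neural crest cells, which give rise to most of the facial skeleton and connective tissue, use fibronectin and laminin receptors of this family during migration and in the facial mesenchyme.

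The genes described here are 39 rows of the deposited expression table, of 38553 genes in all. They were chosen by name: 18 alpha subunits, 9 beta subunits and 12 cytoplasmic adhesion proteins (*Tln1*, *Tln2*, *Vcl*, *Pxn*, *Ptk2*, *Ilk*, *Parva*, *Parvb*, *Lims1*, *Fermt2*, *Zyx* and *Bcar1*). No measured value was used in the choice. All of the names of the rule were found.

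RNA-Seq was performed on poly(A)+ RNA of craniofacial tissue microdissected from mouse embryos at E12.5, with 3 independent samples per genotype. Controls were taken as *Rbfox2* flox/flox without Cre, and mutants were *Rbfox2* flox/flox with *Pax3* Cre/+. On that reading both groups share the floxed alleles, and they share a mixed genetic background. The paper's list of control genotypes also holds flox/+ embryos with and without Cre. *Pax3*-Cre is active in the neural crest and also in paraxial mesoderm, which gives rise to muscle, and the mutants carry a single intact *Pax3* allele. The comparison asks which genes change in facial tissue when the splicing regulator Rbfox2 is removed from these lineages. The tissue holds several cell types, some of which keep *Rbfox2*, and in such bulk samples fewer cells of a type and less RNA per cell cannot be told apart.

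Values are FPKM, fragment counts scaled for gene length and sequencing depth, so levels of different genes can be compared per length. The number of fragments behind a value is unknown. *Rbfox2* was at 58.4, 65.0 and 61.3 FPKM in control replicates 1, 2 and 3 and at 38.1, 36.3 and 34.3 in the mutants, with no overlap (exact two-sided permutation p = 0.10, the smallest that 3 samples against 3 can give). *Pax3* was at 8.83, 11.9 and 11.1 in controls and at 8.62, 7.59 and 8.36 in mutants. The first replicate of both genotypes stood apart from the other 4 samples on the first principal component, which held 54.7% of the variance. Mutant replicates 1 and 2 expressed Y-linked genes, at a mean log2(FPKM + 1) of 3.87 and 3.80, and the other 4 samples lay between 0.035 and 0.074, so the sex of the embryos differed between the groups. Because the first replicates stood apart, differences are also given within replicate 1 and within replicates 2 and 3. This split does not remove the difference in sex. Only the third replicates were both low in Y-linked expression (0.041 in the control and 0.073 in the mutant). Of 10 mesenchyme markers, all 10 passed the expression filter, and their summed FPKM ran from 524 to 606 in controls and from 470 to 549 in mutants, so the samples expressed the defining markers of facial mesenchyme.

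The integrin and adhesion genes were detected over a wide range of levels. *Itgb1*, the gene of integrin β1 (chromosome 8 of GRCm38, 128685654 to 128733200), was the highest, and the controls read 100.2, 129 and 118 FPKM where the mutants read 99.3, 112 and 111 (log2 fold change -0.096, standard error 0.11, unadjusted p = 0.42). The kinase-like scaffold gene *Ilk* and the parvin gene *Parva* followed, at overall means of 90.5 and 63.2. The genes are ordered by their control mean. In each of the 6 samples *Itgb1* was above *Ilk*, and *Ilk* above *Parva*, although the ranges of neighbours overlapped between samples. Of all steps in this order down to *Itga3*, the lowest gene tested, only that from *Zyx* (mean 51.1) to *Itga6* (mean 41.5) had ranges that did not overlap, and the others did not separate beyond the spread of the samples.

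**Figure D1:**
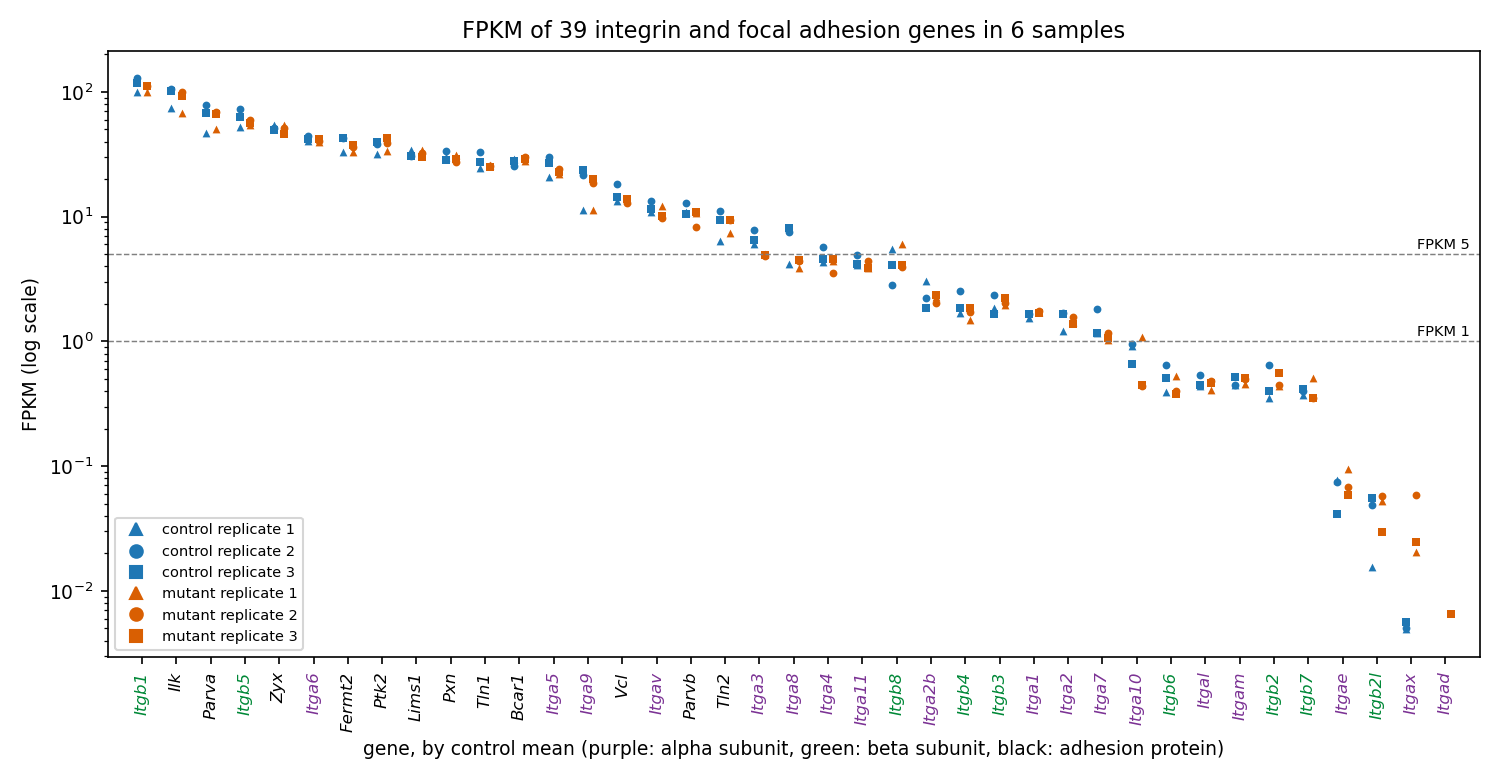
FPKM of the 39 genes in each of the 6 samples on a log axis, ordered by the control mean. Blue symbols are controls, orange symbols mutants, and triangles, circles and squares are replicates 1, 2 and 3. Values of 0 (*Itgad* in 5 samples) cannot be drawn. *Itgb1* is highest at 99.3 to 129, and 10 genes lie below 1 in at least 1 sample of each group.

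Genes were tested where FPKM was over 5 in all controls or all mutants, which 19 of the 39 met: 5 alpha subunits, 2 beta subunits and all 12 adhesion proteins. With FPKM over 1 in place of 5, 29 genes entered. Differences were tested with limma on log2(FPKM + 1) over all 10061 genes that passed, and all fold changes below refer to it. Adding 1 makes the change of weakly expressed genes look smaller than it is.

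No integrin or adhesion gene passed an adjusted p of 0.05 in limma, where 0% of all genes tested did. At an unadjusted p under 0.05, 1 of the 19 genes was called, *Itga3*, lower in the mutants. The share of all tested genes that was lower at this threshold was 0.954%, and it was 1.66% in either direction. Of the 19 genes, 16 had a log2 fold change below 0, against 47.2% of all genes tested, and their median was -0.12, against 0.0057 for all genes tested. By class, the median was -0.15 for the 5 alpha subunits, -0.11 for both beta subunits and -0.056 for the adhesion proteins. The size of the median of the 19 genes rested on control replicate 2. Leaving out that sample gave -0.026, with 15 of the 19 genes below 0, where the median of all genes tested was 0.011. Leaving out control replicate 1 gave -0.22, with 17 of the 19 below 0, where it was -0.017.

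**Figure D2:**
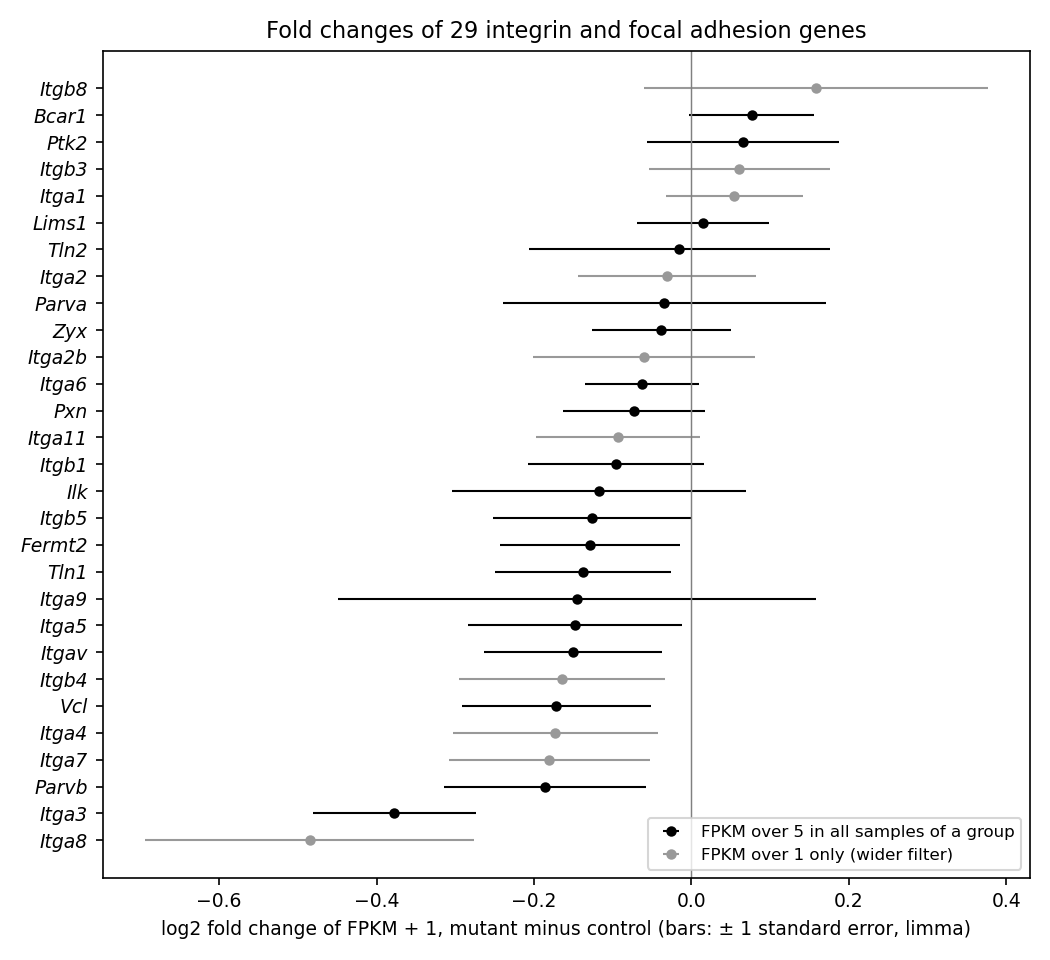
Log2 fold change of FPKM + 1, mutant minus control, for 29 genes, with bars of 1 standard error from limma (n = 3 samples per group). Black points are the 19 genes with FPKM over 5 in all samples of a group, and grey points the 10 further genes with FPKM over 1. *Itga3* (-0.38) and *Itga8* (-0.49) lie lowest, and the bars of most other genes reach or come near 0.

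*Itga3* encodes integrin α3, which pairs with β1 as a laminin receptor of epithelia and other basement membrane contacts. The gene (ENSMUSG00000001507) lies on the minus strand of chromosome 11, from 95044474 to 95076801. Its FPKM was 5.99, 7.78 and 6.46 in control replicates 1, 2 and 3 and 5.02, 4.87 and 4.91 in the mutants. All 3 mutant values were below all 3 controls and close to each other, at 73.2% of the control mean (6.74 ± 0.924 against 4.94 ± 0.0753, SD, n = 3 each). The log2 fold change was -0.38 (standard error 0.10, unadjusted p = 0.0078, adjusted p = 1.0 from limma), and the exact two-sided permutation p was 0.10. Groups did not overlap with the mutants lower in 2.37% of all genes tested and in either direction in 5%. *Itga3* was the only one of the 19 genes without overlap in either direction, but this depends on the filter that set the 19. At the filter of FPKM 1, the groups of *Itga7* (mutants lower) and *Itga1* (mutants higher) did not overlap either.

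*Itga3* passed the FPKM filter through its controls alone, since 2 mutant values were under 5. With the filter at FPKM 1, which it passed in both groups, the standard error was 0.11 and the unadjusted p was 0.0087, beside 2.27% of 13415 genes called in either direction. The mutant was lower by -0.22 in replicate 1 and by -0.46 in replicates 2 and 3. With each sample left out in turn, the value stayed between -0.45 and -0.28, with an unadjusted p under 0.05 each time, and it was -0.39 with an unadjusted p of 0.052 when Y-linked expression was a covariate. With the replicate number as a block its unadjusted p was 0.0083, where the share of all genes called rose from 1.66% to 6%. The 8 epithelial markers summed to 125, 216 and 187 FPKM in controls and to 124, 172 and 132 in mutants, with overlap. Mutant means were 72.9% of the control mean for *Krt5*, 71.4% for *Krt14*, 85.0% for *Trp63*, 85.2% for *Cdh1*, 92.3% for *Epcam*, 98.2% for *Krt8*, 101.4% for *Krt18* and 81.7% for *Grhl3*, and none of the 7 tested had an unadjusted p under 0.05 in limma. In replicates 2 and 3 alone, limma gave 5 of these 7 an unadjusted p under 0.05, where 11% of all genes had one. All 5 were lower in the mutants (*Krt5*, *Krt14*, *Trp63*, *Cdh1* and *Epcam*). With the replicate block *Krt5* and *Krt14* had one, both lower, where 6% of all genes did. The part of epithelial content in the difference of *Itga3* was not tested.

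The other laminin receptors differed less. *Itga6*, the gene of integrin α6, which pairs with β1 or β4 (chromosome 2, 71745616 to 71858416), was the most abundant alpha subunit. It was at 40.7, 44.7 and 41.9 FPKM in controls and at 39.8, 40.3 and 41.6 in mutants. All 6 samples lay close together (log2 fold change -0.063, standard error 0.072). *Itgb4*, the hemidesmosome subunit, ran from 1.49 to 2.55 over all 6 samples, with overlap. *Itga7*, the laminin receptor of muscle, was at 1.17, 1.81 and 1.17 in controls and at 1.04, 1.16 and 1.06 in mutants. Its groups did not overlap, but the nearest values, 1.167 in control replicate 3 and 1.163 in mutant replicate 2, were almost equal, and at the filter of FPKM 1 its log2 fold change was -0.18 (standard error 0.13). The skeletal muscle markers, 7 of which were in the table, had a summed FPKM of 143 (replicate 1), 354 (replicate 2) and 232 (replicate 3) in controls, against 134, 203 and 163 in mutants, and control replicate 2 was highest for *Itga7* too. The part of muscle content in this value was not tested.

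Among the receptors that recognise the RGD sequence of fibronectin and related ligands, *Itga8* had the widest difference. Integrin α8 pairs with β1 and binds nephronectin and fibronectin in mesenchyme. *Itga8* (ENSMUSG00000026768, minus strand of chromosome 2, 12106632 to 12301922) was at 4.18, 7.48 and 8.10 FPKM in controls and at 3.88, 4.43 and 4.50 in mutants. The mutants clustered together, and control replicate 1 fell among them, so the groups overlapped. It did not enter the main test because of that control, and at the filter of FPKM 1 its log2 fold change was -0.49 (standard error 0.21, unadjusted p = 0.053, adjusted p = 1.0 from limma). The difference was -0.086 in replicate 1 and -0.68 in replicates 2 and 3.

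*Itga5*, the gene of the main fibronectin receptor subunit (minus strand of chromosome 15, 103344286 to 103366763), was at 20.6, 30.1 and 26.7 FPKM in controls and at 21.8, 24.2 and 22.8 in mutants. The lowest and the highest of the 6 samples were both controls. The log2 fold change was -0.15 (standard error 0.14, unadjusted p = 0.31). Leaving out control replicate 2 gave -0.034, and leaving out control replicate 1 gave -0.29. *Itgav* (chromosome 2, 83724397 to 83806916), whose product pairs with β1, β3, β5, β6 and β8, was at 10.9, 13.4 and 11.5 in controls and at 12.1, 9.67 and 10.2 in mutants. Its direction differed between the sets, with the mutant 0.14 higher in replicate 1 and -0.30 in replicates 2 and 3, and over all samples the log2 fold change was -0.15 (standard error 0.11, unadjusted p = 0.23). The platelet subunit gene *Itga2b* ran from 1.85 to 3.05, with control replicates 3 and 1 at the ends, and the 6 megakaryocyte and platelet markers summed to 16.1 to 22.4 in controls and to 20.7 to 26.5 in mutants.

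Of the αv partners other than *Itgb1*, the most abundant was *Itgb5* (chromosome 16, 33829665 to 33949338), a vitronectin receptor subunit. It was at 51.9, 72.8 and 63.4 FPKM in controls and at 54.4, 59.5 and 56.7 in mutants, which lay inside the range of the controls. The log2 fold change was -0.13 (standard error 0.13, unadjusted p = 0.35), and it shrank to -0.013 without control replicate 2. Of the summed FPKM of *Itgb3*, *Itgb5*, *Itgb6* and *Itgb8*, *Itgb5* made up 86.5% to 92.6% in each sample. *Itgb8*, whose product with αv releases active TGF-β, was at 5.51, 2.85 and 4.11 in controls and at 6.03, 3.94 and 4.12 in mutants. At the filter of FPKM 1 it had the highest fold change of the 29 genes, at 0.16, but with a standard error of 0.22 and overlapping groups. *Itgb3* ran from 1.65 to 2.34 at a fold change of 0.061 on the log2 scale (standard error 0.11), and the epithelial *Itgb6* from 0.377 to 0.644.

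*Itga9*, the gene of a tenascin and VCAM-1 receptor subunit (chromosome 9, 118606690 to 118901003), followed the replicate sets more than the genotype. The first replicates had 11.4 FPKM (control) and 11.3 FPKM (mutant), where the other controls had 21.4 and 23.7 and the other mutants 18.7 and 19.9. Within replicates 2 and 3 both mutants were below both controls, at -0.21, and over all samples the log2 fold change was -0.15 (standard error 0.30). Its close relative *Itga4* ran from 4.30 to 5.72 in controls and from 3.55 to 4.57 in mutants. The collagen receptor genes were low: *Itga11* ran from 3.85 to 4.96, *Itga1* from 1.53 to 1.75, *Itga2* from 1.21 to 1.70 and *Itga10* from 0.437 to 1.076. *Itga1* was higher in every mutant (1.72, 1.75 and 1.69) than in every control (1.53, 1.67 and 1.65), but its log2 fold change of 0.054 was smaller than its standard error of 0.087.

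**Figure D3:**
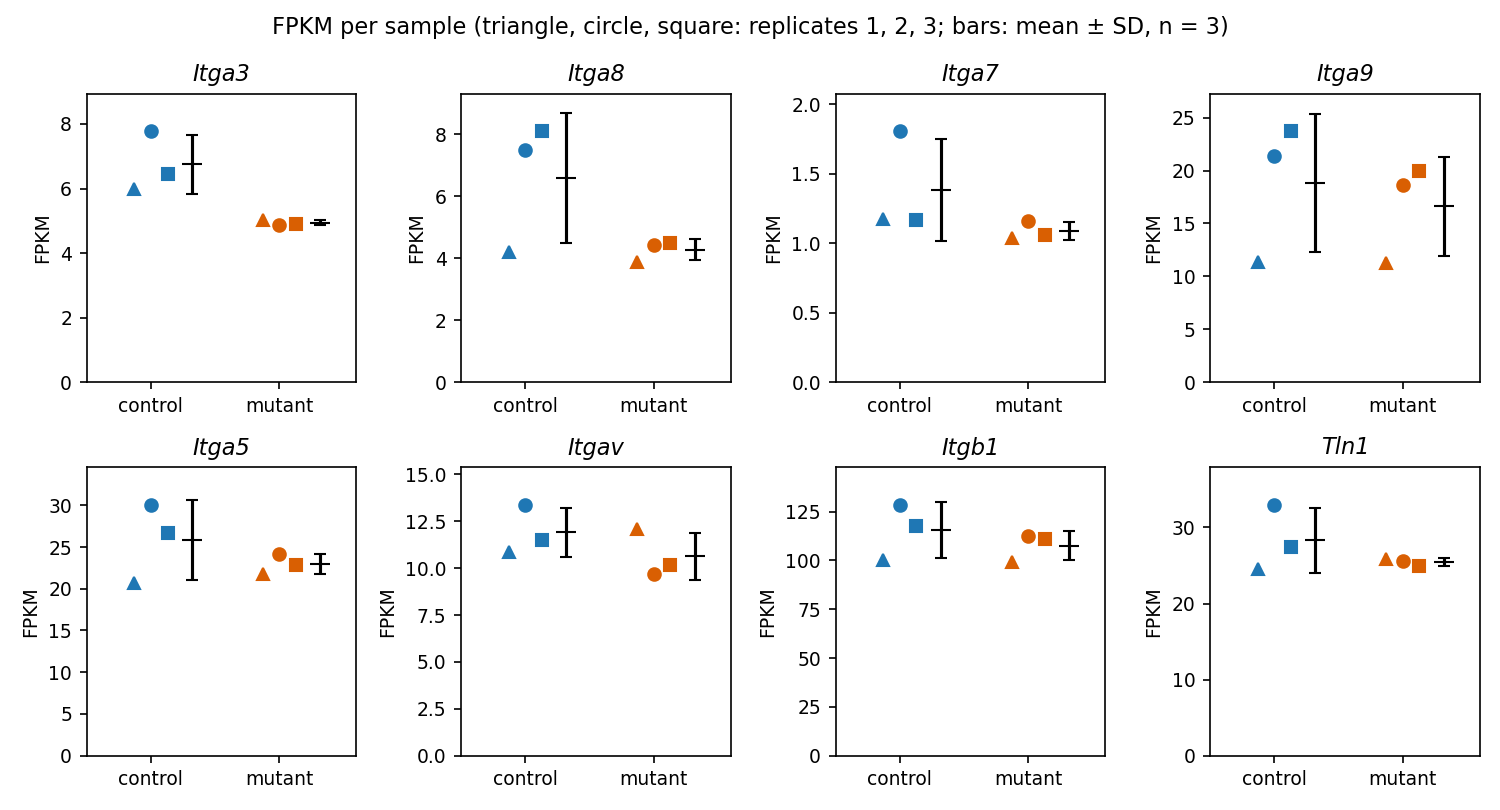
FPKM per sample of 8 genes, with axes from 0. Blue points are controls, orange points mutants, triangles, circles and squares are replicates 1, 2 and 3, and black bars give the mean ± SD (n = 3). The *Itga3* mutants (4.87 to 5.02) lie below all controls, the *Itga8* control replicate 1 (4.18) lies among the mutants, and *Itga9* is lowest in both first replicates.

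The integrins of leukocytes were near the bottom of the range. *Itgal*, *Itgam*, *Itgb2* and *Itgb7* lay between 0.349 and 0.646 FPKM in all 6 samples, and *Itgae* and *Itgb2l* under 0.1. The 7 leukocyte markers summed to 50.9 to 56.9 in controls and to 50.7 to 58.2 in mutants. Of these only *Ptprc*, the common leukocyte antigen, was under 1 in all samples. *Itgad* was listed at 0 in 5 samples. *Itgax*, a marker of dendritic cells, was at 0.0049, 0.0050 and 0.0056 in controls and at 0.020, 0.059 and 0.025 in mutants. The groups did not overlap, but these levels are too close to 0 for a fold change to be given. In the annotation, 68.7% of the exonic bases of *Itgam* are shared with *Gm49368* on the same strand, so its value is uncertain.

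The 12 adhesion proteins all passed the filter, and no fold change was above 0.19 in size. The talins, which bind and activate beta subunits, were represented mainly by *Tln1* (minus strand of chromosome 4, 43531519 to 43562691). Its FPKM was 24.5, 33.0 and 27.4 in controls and 25.9, 25.5 and 24.9 in mutants. Its log2 fold change of -0.14, with a standard error of 0.11 and an unadjusted p of 0.26, shrank to -0.026 without control replicate 2. *Tln2* was at 6.35, 11.2 and 9.40 in controls and at 7.41, 9.33 and 9.40 in mutants (-0.015, standard error 0.19). Both first replicates were the lowest samples for *Tln2*. The kindlin gene *Fermt2*, whose product activates integrins together with talin, was at 33.2, 42.4 and 42.5 in controls and at 33.3, 36.5 and 37.6 in mutants (-0.13, standard error 0.11, unadjusted p = 0.30). Its first replicates were almost equal, and in replicates 2 and 3 the mutants were lower by -0.19.

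*Vcl*, the gene of the actin linker vinculin (chromosome 14, 20929398 to 21033676), was at 13.3, 18.3 and 14.4 FPKM in controls and at 13.5, 12.8 and 13.8 in mutants. Mutant replicate 2 lay below all controls, and mutant replicates 1 and 3 lay between the lowest control and the next. The log2 fold change of -0.17 (standard error 0.12, unadjusted p = 0.19 from limma) shrank to -0.045 without control replicate 2. *Pxn*, the gene of the scaffold paxillin, ran from 27.4 to 33.6 over all samples (-0.074, standard error 0.090), and *Zyx*, the gene of the tension-sensitive zyxin, from 45.8 to 54.4 (-0.038, standard error 0.088). In the annotation *Vcl* shares 25.5% of its exonic bases with *Ap3m1* on the opposite strand, and whether strand was used in counting is not stated.

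The complex of ILK, PINCH and parvin links beta tails to actin. *Ilk* was at 74.9, 105 and 102 FPKM in controls and at 67.6, 101 and 92.4 in mutants, lower in the mutant of each replicate number but with overlapping groups. Its log2 fold change was -0.12 (standard error 0.19), and 89.7% of its exonic bases overlap *Taf10* and *Rrp8* on the other strand, so its level is uncertain. *Parva* was at 46.7, 79.2 and 67.2 in controls and at 50.9, 68.5 and 66.5 in mutants (-0.034, standard error 0.21). *Parvb* had the lowest fold change among the adhesion proteins, at -0.19 (standard error 0.13, unadjusted p = 0.19), where controls had 10.8, 12.97 and 10.5 FPKM and mutants 10.7, 8.27 and 10.9. That value rested on the second replicates, at the top of the controls and the bottom of the mutants. It was -0.071 without mutant replicate 2. *Lims1*, the gene of PINCH1, ran from 30.2 to 34.2, at 0.015 on the log2 scale (standard error 0.083).

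Both signalling genes were slightly higher in the mutants, within error. *Ptk2*, the gene of focal adhesion kinase, was at 31.9, 38.3 and 39.5 FPKM in controls and at 33.3, 39.1 and 42.6 in mutants (0.065, standard error 0.12). *Bcar1*, the gene of p130Cas, was at 28.9, 25.5 and 27.8 in controls and at 27.7, 30.1 and 28.9 in mutants (0.076, standard error 0.079). With *Lims1*, these were the genes with a fold change above 0 among the 19.

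The differences varied with the replicate number. Between the first replicates, the median difference of the 19 genes was 0.0041, with 8 genes lower in the mutant, and over all genes tested the median was -0.014 with 54.6% lower. Between the second replicates the median was -0.21 with 16 of the 19 lower, and between the third -0.084 with 15 lower. Over all genes tested, 48.4% and 44.3% were lower in these pairs. For 13 of the 19 genes the top value was that of control replicate 2, as it was for 21.1% of all genes tested. It also had the highest sum of skeletal muscle markers (354, against 134 to 232 in the others), of epithelial markers (216, against 124 to 187), of mesenchyme markers (606, against 470 to 549), of endothelial markers (109.8, against 80.1 to 100.4) and of Schwann cell and glia precursor markers (36.4, against 28.2 to 34.1). It had the lowest sum of neuronal markers (596, against 640 to 809), of neural progenitor markers (166, against 211 to 258) and of erythroid markers (687, against 745 to 1509). The erythroid sum held only 3 of the 5 markers listed and was mostly *Hba-a1*, at 668 in control replicate 2. The part of the make-up of control replicate 2 in these values was not tested.

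In replicates 2 and 3 alone, 7 of the 19 genes had an unadjusted p under 0.05 in limma, all lower in the mutants: *Itga3*, *Itga5*, *Itga9*, *Itgav*, *Itgb5*, *Fermt2* and *Tln1*. The share of all genes called in that setting was 11%, and 0 of these 7 genes passed after adjustment. Without control replicate 1, *Itga3*, *Itga5*, *Itgb5* and *Fermt2* had an unadjusted p under 0.05, where 6.45% of all genes did. The neuronal markers moved the other way, with summed FPKM of 596 to 677 in controls and 731 to 809 in mutants. Over all 6 samples 3 of the 7 had an unadjusted p under 0.05, where 1.66% of all genes did, and in replicates 2 and 3 alone 5 of the 7 did, where 11% did. In that setting *Nefl* was lower in the mutants, at -0.13, with an unadjusted p of 0.40. Other marker lists moved in that setting too, at the same threshold. Lower in the mutants were 5 of 5 skeletal muscle markers tested, 5 of 7 epithelial, 4 of 10 mesenchyme and 1 of 3 Schwann cell and glia precursor markers. Higher were 2 of 2 erythroid and 1 of 6 neural progenitor markers. None of the endothelial, leukocyte or megakaryocyte and platelet markers tested was called. With the replicate block over all samples, 6% of all genes had an unadjusted p under 0.05 in limma. The neuronal markers *Tubb3*, *Elavl3*, *Elavl4*, *Stmn2*, *Dcx* and *Snap25* had one, all higher in the mutants, and *Nefl* did not. The muscle markers *Myod1*, *Myog*, *Actc1*, *Tnnt1* and *Myl1* and the mesenchyme marker *Col1a1* had one too, all lower. The part of neuronal or other cell content in these differences was not tested.

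**Figure D4:**
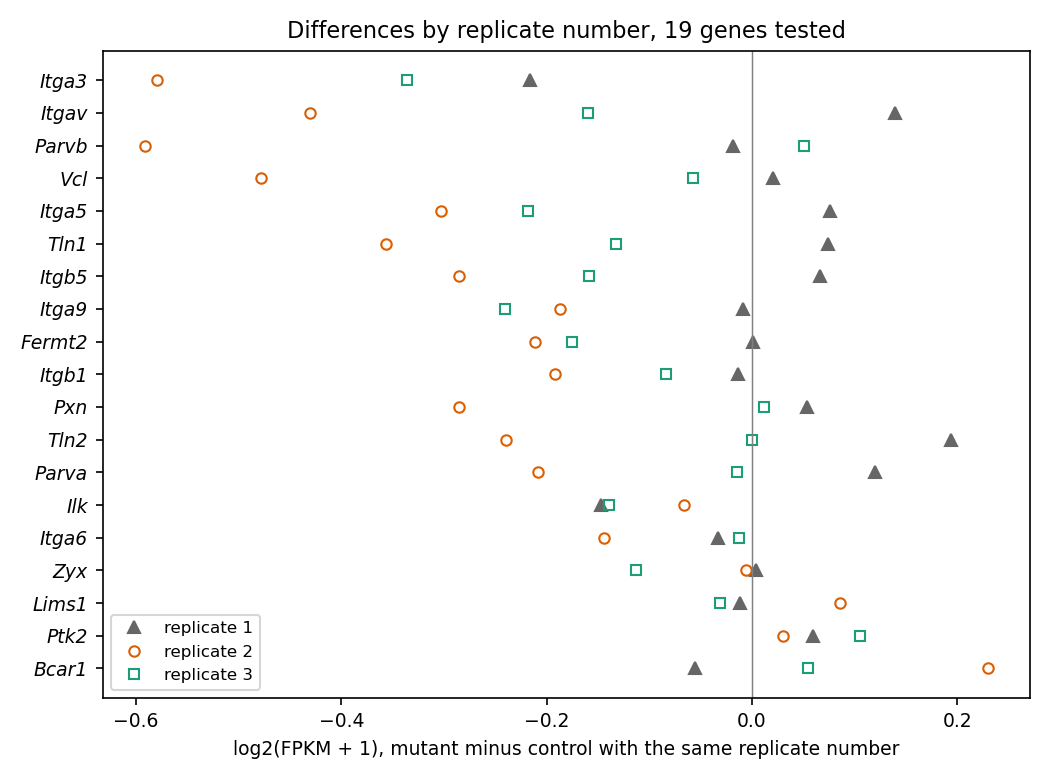
Difference in log2(FPKM + 1), mutant minus control of the same replicate number, for the 19 genes tested. Grey triangles are replicate 1, orange circles replicate 2 and green squares replicate 3. Most triangles lie close to 0, most circles lie to the left, and *Itga3* is well below 0 in all 3 pairs.

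Ratios within a sample remove changes that are common to both genes. The 12 alpha subunits that can pair with β1 summed to 1.07, 1.102 and 1.12 times the FPKM of *Itgb1* in controls and to 1.082, 1.02 and 1.05 times in mutants (exact two-sided permutation p = 0.20, adjusted p = 0.70 over 6 ratios). *Itga6* made up 31.6% to 38.1% of that sum in each sample, *Itga5* 19.3% to 21.2%, *Itga9* 10.5% to 17.9% and *Itgav* 8.41% to 11.2%. The ratio of *Itga5* to *Itgb1* had a geometric mean of 0.222 in controls and 0.213 in mutants, that of *Itgav* 0.103 and 0.0985, and that of *Itga6* 0.369 and 0.377. *Tln2* was at 0.311 of *Tln1* in controls and 0.340 in mutants, and *Parvb* at 0.181 of *Parva* and 0.161. In these 5 ratios the groups overlapped, with exact two-sided permutation p-values of 0.40 to 0.70 and adjusted p-values of 0.70. Paired by replicate number, *Tln2* to *Tln1* was higher in the mutant of all 3 pairs, with an exact two-sided p of 0.25, the smallest that 3 pairs can give, and the other 5 ratios had an exact p of 0.50 to 0.75.

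**Figure D5:**
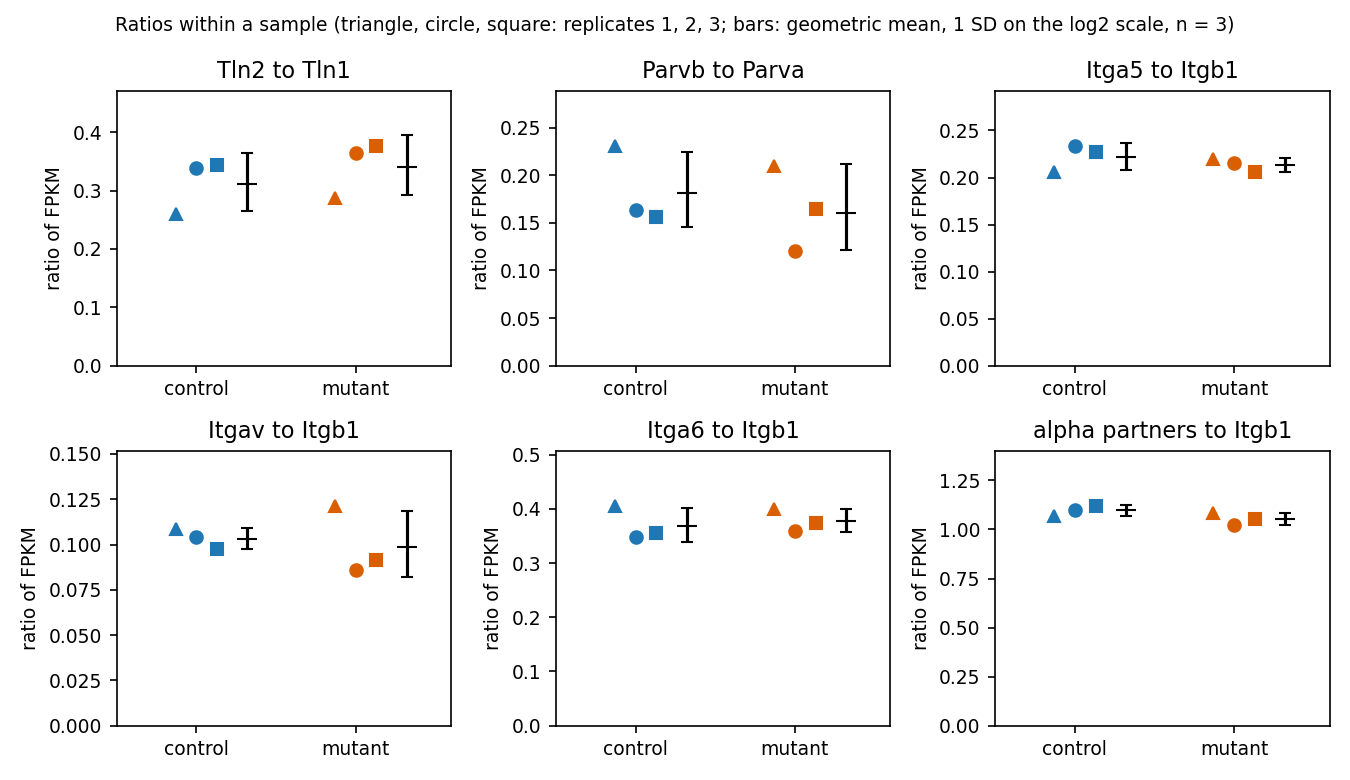
Ratios of FPKM within each sample for 6 pairs or sums of genes, with axes from 0. Blue points are controls, orange points mutants, triangles, circles and squares are replicates 1, 2 and 3, and bars give the geometric mean with 1 SD on the log2 scale (n = 3). Control and mutant points overlap in every panel, and the first replicates lie lowest for *Tln2* to *Tln1* and highest for *Parvb* to *Parva*.

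Of 23 genes of integrin ligands, 19 were tested and 17 had a log2 fold change below 0, with a median of -0.17, where 47.2% of all genes tested were below 0. At an unadjusted p under 0.05, 1 ligand gene was called, where 1.66% of all genes were. It was *Col1a1*, the main chain of type I collagen, at 135, 162 and 123.3 FPKM in controls and 113, 121 and 82.1 in mutants. Its log2 fold change was -0.42 (standard error 0.17, unadjusted p = 0.042, adjusted p = 1.0 from limma), its groups did not overlap, and the value was -0.25 without mutant replicate 3. With the replicate block, *Vtn*, *Tnc* and *Npnt* had an unadjusted p under 0.05 as well, where 6% of all genes did, and 0 of these 4 genes passed after adjustment. *Vtn*, the gene of the αvβ5 ligand vitronectin, was at 16.6, 7.33 and 8.68 in controls and higher in the mutant of each number, at 20.0, 14.4 and 12.8 (0.55, standard error 0.29). *Tnc*, the gene of the α9 ligand tenascin C, was at 15.2, 32.5 and 22.7 and at 14.3, 18.7 and 14.4 (-0.49, standard error 0.25). *Npnt*, the gene of the α8 ligand nephronectin, was at 12.0, 19.6 and 15.9 and at 11.9, 14.1 and 11.5 (-0.30, standard error 0.17).

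The fibronectin gene *Fn1* was at 51.5, 114 and 75.6 FPKM in controls and at 57.6, 61.6 and 59.0 in mutants (-0.36, standard error 0.26, unadjusted p = 0.20). The periostin gene *Postn* was at 58.8, 149.8 and 101 in controls and at 75.0, 94.0 and 69.8 in mutants (-0.28, standard error 0.31, unadjusted p = 0.39). In both, control replicate 2 was highest and control replicate 1 lowest of all samples, as in *Itga5* and *Itgb5*. Of 43 other adhesion site proteins, 34 were tested and none had an unadjusted p under 0.05 in limma, with a median log2 fold change of -0.021. With the replicate block 1 of the 34 did, the actin crosslinker gene *Flna* (-0.22), where 6% of all genes did. Of 6 inhibitors of integrin activation, 5 were tested and none was called, with a median of 0.015.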

How the data were processed

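The authors aligned 151-nucleotide stranded paired-end reads to GRCm38 with STAR and deposited FPKM values per gene for each sample. The labels also name FastQC 0.11.4; versions of STAR and Cuffdiff, the annotation and the step that made the gene table are not given in the sources used here. The series table and the single-sample tables held the same values (0 differences), summing to 528123 to 590174 per sample. Whole reads could not be recovered, so no count test was run, and precision rests on 3 samples per group.

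Genes with FPKM over 5 in all controls or all mutants were compared on log2(FPKM + 1), a pseudocount of 1, with limma 3.58.1 (R 4.3.3), an intensity trend and no covariates, with Benjamini-Hochberg adjustment over 10061 genes. The fit was tested on simulated data. Ratios were compared by exact permutation tests (scipy 1.17.1). Positions and overlaps came from GENCODE for GRCm38, in which all 39 genes were found. Genes, lists and tests were chosen with earlier results of these data known. Statistics were given for *Itga5*, *Itga8*, *Itgav*, *Itgb1*, *Itgb3*, *Itgb5*, *Itgb8*, the 12 adhesion proteins and the 8 genes with the smallest unadjusted p, and for ligands and adhesion site genes with an unadjusted p under 0.05, *Fn1* and *Postn*. Others with statistics or named under an alternative (*Itga1*, *Itga6*, *Itga7*, *Itga9*, *Vtn*, *Tnc*, *Npnt*, *Flna* and single markers of cell types) were chosen after their values were seen. Same-numbered control and mutant samples deviated from their group means together, with correlations of 0.64, 0.26 and 0.51 across genes. The numbers were therefore taken as pairs in a replicate block, although no source ties them to litters. Different numbers correlated at up to 0.40. Mutant replicate 2 correlated more with control replicate 3 (0.40) than with control replicate 2 (0.26), so the pairing of replicates 2 and 3 is uncertain.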

Additional observations from a re-analysis of the deposited data

How the results depend on the processing

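No integrin or adhesion gene had an adjusted p under 0.05 in any setting. Over all genes, limma called 0 at an adjusted p of 0.05, but 3 with a term for the first replicates, 4 in replicates 2 and 3 only, and 0 to 1 with each sample left out. At an unadjusted p under 0.05 it called 167, which became 604 with the replicate block, 304 at FPKM over 1, 663 with no filter, 611 with the first replicate term, 1103 in replicates 2 and 3 only and 78 to 649 with each sample left out. The 1 integrin or adhesion gene called became 0 with the Y-linked covariate, 7 in replicates 2 and 3 only and 1 to 4 with each sample left out. The replicate block changed no call among these genes. Of the related genes, 1 became 0 with quantile normalization or no filter, 5 with the replicate block, 4 with the first replicate term, 13 in replicates 2 and 3 only and 0 to 13 with each sample left out. *Rbfox2* passed an adjusted p of 0.05 with the first replicate term (-0.75, adjusted p = 0.030) and in replicates 2 and 3 only (-0.82, adjusted p = 0.033). The sign reversed with the Y-linked covariate in *Itga9* (0.15), *Lims1* (-0.074), *Parva* (0.080) and *Tln2* (0.090). With each sample left out, log2 fold changes crossed 0 in *Ilk* (-0.27 to 0.051), *Ptk2* (-0.027 to 0.16), *Itga9* (-0.45 to 0.096), *Zyx* (-0.093 to 0.029), *Lims1* (-0.024 to 0.066), *Parva* (-0.24 to 0.13) and *Tln2* (-0.22 to 0.14). So did the log2 ratios of *Tln2* to *Tln1* (-0.0029 to 0.25), *Parvb* to *Parva* (-0.36 to 0.036), *Itgav* to *Itgb1* (-0.22 to 0.031) and *Itga6* to *Itgb1* (-0.011 to 0.10). The causes were not tested. A pseudocount of 0.1, median ratio scaling and limma without the trend reversed no sign and changed no call among the integrin and adhesion genes. Over all genes they called 165, 172 and 170 at an unadjusted p under 0.05. FPKM keep no read counts, so counting error is unknown, and 3 samples per group with unequal sex and a separate first replicate limit what can be detected.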
